A study of Mus musculus with 4 samples.

Results

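The genes described here encode the subunits of the proteasome together with its activators, its inhibitor and its assembly chaperones. They were taken by symbol as all genes beginning with Psma, Psmb, Psmc, Psmd, Psme, Psmf or Psmg, without the interferon-induced subunits Psmb8, Psmb9 and Psmb10 and without pseudogenes, which gave 45 of the 16555 genes listed. By role, 14 belonged to the core particle, 17 to the regulatory particle that caps it, 6 were activators or inhibitors and 7 were assembly chaperones. The remaining gene, Psmc3ip, shares the prefix only, and its product works in homologous recombination in meiosis. The core genes Psma8 and Psmb11, known from testis and thymus, were not analysed here.

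The libraries were made from total RNA of CD4+ T cells, sorted as CD45+CD3+CD4+ from the colon of Rag1-/- mice with colitis. These hosts cannot make T or B cells of their own. They had received CD4+CD25-CD45RBhi T cells 6 weeks earlier, from CK2αfl/fl donors for 2 libraries and from CK2αfl/fl donors carrying dLck-Cre for the other 2. The donor cells of both groups thus carried floxed alleles of CK2α, a catalytic subunit of the kinase CK2, and the distal Lck promoter drives Cre in mature T cells. The labels do not say whether libraries of a group came from separate animals. Every p-value below thus sets a difference against the spread between these libraries, which may be partly technical. In the tests used, the spread of a gene is estimated partly from other genes.

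The proteasome is the main machine for breaking down ubiquitin-tagged proteins in the cytosol and nucleus. Stacked rings of alpha and beta subunits enclose the proteolytic sites, the regulatory particle recognises ubiquitin and unfolds the substrate, and alternative activators open the gate of the core without ubiquitin. In activated T cells it limits signalling proteins and transcription factors, and interferon gamma can exchange the catalytic beta subunits for their immunoproteasome counterparts.

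The genes of a class were compared as a group, and stretches before or just after the start sites of 7 genes are shown. They are the catalytic subunits Psmb5 and Psmb6, the core gene with the lowest difference among those with a promoter entry (Psmb3), the regulatory particle genes Psmd8 and Psmd2, and the paired activator genes Psme2 and Psme1. Each reads 5′ to 3′ on the gene's strand from RefSeq (GRCm38.p6), with matches to 6 motifs in capitals. The motifs, searched on both strands, were CCAAT (the CCAAT box), TGACNNNGC (the core of the antioxidant response element), GGGCGG (the GC box), TTTC, any 2 bases and TTTC again (the core of the interferon-stimulated response element), CCGGAA (the ETS core) and CACGTG (the E box).
Psmb5 (chymotrypsin-like site; chr14:54617996-54618165, minus strand): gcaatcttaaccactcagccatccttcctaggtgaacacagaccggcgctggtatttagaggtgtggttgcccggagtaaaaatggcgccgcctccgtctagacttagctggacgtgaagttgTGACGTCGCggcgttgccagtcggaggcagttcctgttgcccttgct
Psmb6 (caspase-like site; chr11:70525187-70525356, plus strand): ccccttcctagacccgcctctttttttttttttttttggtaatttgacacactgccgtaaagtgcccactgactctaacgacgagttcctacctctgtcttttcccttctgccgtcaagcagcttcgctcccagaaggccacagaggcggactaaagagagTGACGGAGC
Psmb3 (structural beta subunit; chr11:97703264-97703433, plus strand): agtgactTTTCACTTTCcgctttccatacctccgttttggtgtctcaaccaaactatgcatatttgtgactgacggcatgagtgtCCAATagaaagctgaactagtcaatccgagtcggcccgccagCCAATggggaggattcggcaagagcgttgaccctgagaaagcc
Psmd8 (lid subunit; chr7:29180674-29180843, minus strand): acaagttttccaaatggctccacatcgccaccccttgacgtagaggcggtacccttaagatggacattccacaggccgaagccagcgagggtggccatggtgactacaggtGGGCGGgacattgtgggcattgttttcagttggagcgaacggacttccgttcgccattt
Psmd2 (base subunit; chr16:20651482-20651651, plus strand): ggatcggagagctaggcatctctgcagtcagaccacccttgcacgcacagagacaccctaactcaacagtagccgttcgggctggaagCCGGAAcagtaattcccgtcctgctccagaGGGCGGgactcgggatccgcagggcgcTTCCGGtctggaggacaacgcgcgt
Psme2 (activator beta chain; chr14:55591102-55591271, minus strand): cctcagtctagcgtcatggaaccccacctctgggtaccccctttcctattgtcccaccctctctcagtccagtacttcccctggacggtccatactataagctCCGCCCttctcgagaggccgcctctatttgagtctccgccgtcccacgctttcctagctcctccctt
Psme1 (activator alpha chain, bases around its interferon element match; chr14:55578493-55578522, plus strand): cgagctgtgcTTTCGCTTTCccttcccgct

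The stretch of Psme2 lies before 1 of its 2 annotated start sites. All stretches but that of Psme1 cover the 170 bases before the annotated start site. Psmb5 and Psmb6 each held a TGACNNNGC match close to the start, at -47 and -9. Psmb3 held 2 CCAAT boxes, at -85 and -43, and an interferon element match at -163, while the match of Psme1 lay 10 bases into the transcript. Psmd2 held CCGGAA on both strands, at -82 and -25. A promoter window, running from 250 bases before to 50 after a start site, was found for 38 of the 45 genes, as 41 windows. CCAAT was present in 6 of 12 core windows and in 4 of 15 regulatory particle windows, against 37.1% of the windows of all genes listed in the table. CCGGAA was present in 4 of 12 core windows and in 11 of 15 regulatory particle windows, against 25.2% of the windows of listed genes. TGACNNNGC occurred in 6 of the 41 windows (14.6%) and in 14.3% of those of listed genes, GGGCGG in 23 (56.1%) and in 58.8%, the interferon element in 5 (12.2%) and in 3.27%, and CACGTG in 3 (7.32%) and in 9.41%. Over all 32851 windows the shares were 37.4% for CCAAT, 12.4% for TGACNNNGC, 35.7% for GGGCGG, 3.44% for the interferon element, 14.9% for CCGGAA and 7.15% for CACGTG. In the windows of the 38 genes, matches of different motifs overlapped in 2 places. These matches describe letters and do not show that a factor binds.

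Csnk2a1, the targeted gene, was not at a lower level where the labels give Cre. Csnk2a1 had 1534 and 1597 normalized counts in fl/fl libraries and 2118 and 2031 in dLck-Cre-labelled libraries, so the groups did not overlap (log2 difference 0.41 ± 0.13 SE; limma, adjusted p = 0.108). A count over the whole gene does not tell whether a floxed exon is missing, and directions below refer to the libraries as labelled. Recovered whole reads came to between 16777017 and 22422971 per library. The sorted cells carried T cell transcripts, whose 20 listed genes summed to 0.762% to 0.785% of normalized counts in fl/fl libraries and to 0.536% to 0.597% in dLck-Cre-labelled libraries, with 8 of 20 lower and 0 higher in limma's test. The 15 epithelial markers summed to 0.175% to 0.184% and 0.416% to 0.534%, with 14 higher, and the 16 myeloid markers to 0.168% to 0.236% and 0.409% to 0.477%, with 11 higher. Only 2 of the 6 listed B and plasma cell genes could be tested, Cd79a and Igkc, with 1 higher, and they summed to 0.000103% to 0.000204% and 0.000767% to 0.000805%. In a bulk library fewer cells of a type and less RNA per cell cannot be told apart, and the part of other cells in the values below was not tested.

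No proteasome gene passed the test between genotypes. Of 45 genes 0 passed the threshold, an adjusted p of 0.05 in limma's test across all 16490 genes tested, and their adjusted p-values ran from 0.252 to 0.985. Over all genes tested 6.97% passed, 5.75% as higher and 1.22% as lower in dLck-Cre-labelled libraries. At an unadjusted p under 0.05 the count was again 0 of 45, against 23.9% of all genes tested, and edgeR and DESeq2 on the recovered reads also called 0 of 45, with 0 at an unadjusted p under 0.05. The differences, as log2 of the normalized count plus 1, ran from -0.34 in Psmb1 to 0.31 in Psmd7. Their median was -0.06 with quartiles of -0.16 and 0.02, beside a median of -0.02 with quartiles of -0.26 and 0.39 over all genes tested.

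Under the deposited scaling the intervals bound how large an undetected change could be. The 95% interval of the difference lay within a 2-fold change in either direction for 44 of 45 genes, the exception being the sparsely read Psmc3ip, and for 54.6% of all genes tested. It lay within a 1.5-fold change for 36 of 45 (80%), against 24.2% of all genes tested. These shares were not matched for level, and the median SE was 0.146 for the members and 0.227 over all genes tested. After T cell identity scaling, described at the end, 40 of 45 intervals lay within a 2-fold change. The widest intervals belonged to genes of low level. Psmc3ip rested on 68 to 94 recovered reads per library and Psmg3 on 95 to 167.

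**Figure D1:**
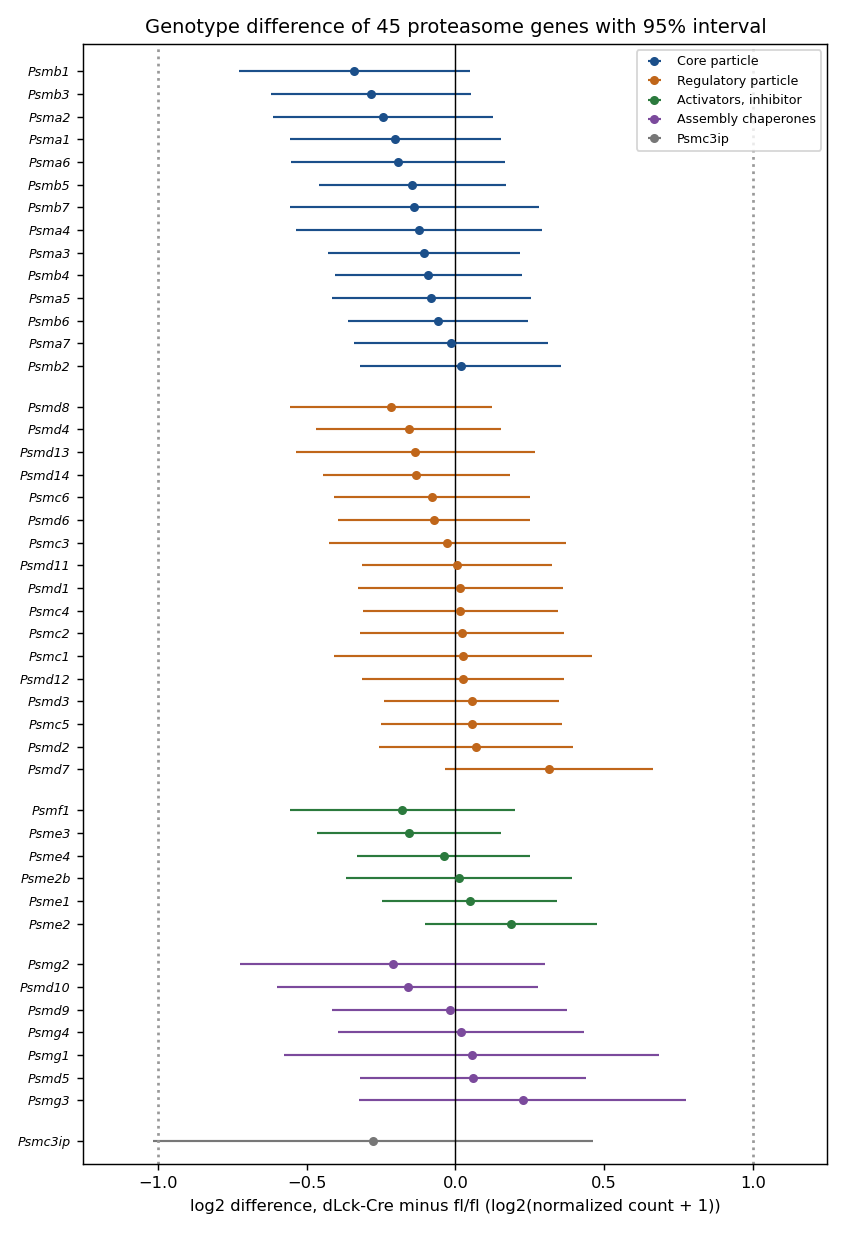
Difference between the genotypes for each of the 45 genes, on the scale of log2(normalized count + 1), as dLck-Cre minus fl/fl, with the 95% interval from limma (2 libraries per group). Dotted lines mark a 2-fold change, and colours mark the class. All intervals cross 0. Of the core genes 13 of 14 lie below 0, which falls to 7 of 14 without dLck-Cre library 2 or under quantile normalization.

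Core particle genes lay slightly lower in dLck-Cre-labelled libraries without any of them passing, and above 0 when scaled to T cell identity genes. Of 14 core genes, 13 were below 0 and 1, the structural beta subunit gene Psmb2 (0.02 ± 0.14 SE), above it, at a median of -0.13. Over all genes tested 52.3% were below 0. This tally rests on dLck-Cre library 2: without it 7 of 14 were below 0 and the median was -0.010, and without fl/fl library 1 the count was 9. Quantile normalization also left 7 of 14 below 0, at a median of -0.018. The log2 ratio of the summed core level, -0.15, ran from -0.28 to -0.03 when 1 library was left out. As a share of all normalized counts the core sum was 0.216% and 0.190% in fl/fl libraries. In dLck-Cre-labelled libraries it was 0.219% and 0.176%, a ratio of means of 0.973 with overlapping groups. On that measure the ratios were 1.06 for the regulatory particle, 1.12 for activators and inhibitor and 1.06 for assembly chaperones. The lowest was Psmb1, a structural beta subunit, which had 4939 and 4280 normalized counts in fl/fl libraries and 4149 and 3183 in dLck-Cre-labelled libraries. Both fl/fl libraries were above both others, with fl/fl library 2 and dLck-Cre library 1 close together. The log2 difference was -0.34 ± 0.17 (SE; limma, adjusted p = 0.264; 95% interval -0.73 to 0.05). Psmb3, another structural beta subunit, had 3558 and 2993 against 2824 and 2548 normalized counts, again without overlap, at -0.28 ± 0.14 (adjusted p = 0.283).

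The 3 catalytic subunit genes differed by less. Psmb5, which carries the chymotrypsin-like site that bortezomib blocks, had 1102 and 1112 normalized counts in fl/fl libraries and 1023 and 979 in dLck-Cre-labelled libraries (log2 difference -0.15 ± 0.13 SE; limma, adjusted p = 0.564). The groups did not overlap, and the replicates lay close together. Psmb6, the caspase-like subunit, had 2354 and 2145 against 2198 and 2121 (-0.06 ± 0.13, adjusted p = 0.832). Psmb7, the trypsin-like subunit, had 2395 and 1836 against 2124 and 1708 (-0.14 ± 0.18, adjusted p = 0.694). Their libraries interleaved, and the fl/fl replicates of Psmb7 were farther apart than the group means.

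All 7 alpha ring genes, whose products gate the entry to the core, lay below 0, from -0.24 in Psma2 to -0.01 in Psma7, and in all of them the libraries of the groups overlapped. Without dLck-Cre library 2, and also under quantile normalization, 3 of 7 were below 0. Psma2 had 4520 and 3794 normalized counts against 3881 and 3159, the dLck-Cre library 1 lying above fl/fl library 2. Psma7 had 3407 and 3289 against 3619 and 3033, so that the highest and the lowest value both came from libraries labelled dLck-Cre.

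Regulatory particle genes lay on both sides of 0. Of 17, 10 were above and 7 below, with a median of 0.02. The count below 0 was 4 without dLck-Cre library 2, 5 without fl/fl library 1, 13 without dLck-Cre library 1 and 14 without fl/fl library 2. The 6 ATPase genes, which form the ring that unfolds substrates, ran only from -0.08 (Psmc6) to 0.05 (Psmc5), and in each the libraries of the groups overlapped. Psmc5 had 1532 and 1512 normalized counts in fl/fl libraries and 1633 and 1531 in dLck-Cre-labelled libraries. Of the other base genes, Psmd2, a docking subunit for ubiquitin receptors and shuttles, had 4946 and 4393 against 5237 and 4571 (0.07 ± 0.14 SE). The ubiquitin receptor gene Psmd4 had 3215 and 3303 against 3130 and 2730 (-0.16 ± 0.13), without overlap.

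The lid held both ends of the regulatory particle. Psmd7, the structural partner of the deubiquitinase Psmd14, had 519 and 561 normalized counts in fl/fl libraries and 659 and 684 in dLck-Cre-labelled libraries. Both of the latter lay above both fl/fl libraries, and the log2 difference was 0.31 ± 0.15 (SE; limma, adjusted p = 0.252; 95% interval -0.04 to 0.67). Psmd8 had 3378 and 2880 against 2874 and 2510, at -0.22 ± 0.15 (adjusted p = 0.416). Psmd14, which removes ubiquitin chains at the entrance, had 2127 and 2081 against 2053 and 1798, and Psmd3, a scaffold of the lid, 1861 and 1867 against 1966 and 1906. In these 2 genes the groups did not overlap, but their log2 differences were only -0.13 ± 0.13 and 0.05 ± 0.13.

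The interferon-inducible activator genes lay at or slightly above 0 and did not pass. Psme2 had 4596 and 4355 normalized counts in fl/fl libraries and 5105 and 5074 in dLck-Cre-labelled libraries, without overlap (log2 difference 0.19 ± 0.12 SE; limma, adjusted p = 0.410). Psme1, which encodes the other chain of the same ring and lies beside it on chromosome 14 (55578123 to 55581529, and 55587441 to 55591113 for Psme2, GRCm38), had 4920 and 4548 against 4981 and 4803 (0.05 ± 0.13, adjusted p = 0.858). Ifng, which encodes interferon gamma, had 7025 and 6435 against 7454 and 32696, so dLck-Cre library 2 stood far above library 1 in Ifng. In Psme1 library 2 lay slightly below library 1, and in Psme2 the 2 were about level. A link between Ifng and these genes was not tested. Irf1, an interferon-induced transcription factor, had 8635 and 7490 against 11557 and 13749 and passed as higher (0.65 ± 0.15, adjusted p = 0.0474). Psme2b, an intronless gene on chromosome 11, matched Psme2 at 99.4% of 794 aligned bases, so reads of this pair are uncertain. It had 395 and 429 against 405 and 426 normalized counts.

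The other activators and the inhibitor lay a little lower. Psme3, the nuclear activator, had 1377 and 1363 normalized counts against 1263 and 1198 (log2 difference -0.16 ± 0.13 SE). Psme4, a large single-chain activator, had 2151 and 2161 against 2122 and 2073 (-0.04 ± 0.13). Psmf1, which encodes an inhibitor of the core, had 403 and 413 against 360 and 362 (-0.18 ± 0.16). In all 3 genes both fl/fl libraries were above both libraries labelled dLck-Cre by small steps, and their adjusted p-values in limma's test were 0.524, 0.885 and 0.556. Over all 45 genes the groups did not overlap in 13, of which 9 were lower and 4 higher in dLck-Cre-labelled libraries, or 20% and 8.89%. Over all genes tested the shares were 27.4% and 27.7%.

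Assembly chaperone genes scattered around 0 with a median of 0.02. They ran from Psmg2 (-0.21 ± 0.22 SE), with 264 and 334 normalized counts against 292 and 225, to Psmg3 (0.23 ± 0.24), with 111 and 105 against 117 and 137. The products of the Psmg genes work in pairs to build the core. Psmg1, the partner of Psmg2, had 245 and 193 against 285 and 179, so the libraries labelled dLck-Cre were the highest and the lowest. Psmd5, Psmd9 and Psmd10, which help to assemble the ATPase ring, differed by 0.06, -0.02 and -0.16. Psmc3ip had 97.7 and 75.1 normalized counts against 86.8 and 57.3 (-0.28 ± 0.32; limma, adjusted p = 0.650).

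Libraries of a genotype differed from each other in a shared direction. The core genes were lower in fl/fl library 2 than in library 1 in 13 of 14 cases, by a median of -0.17 (log2), and lower in dLck-Cre library 2 than in library 1 in 14 of 14, by -0.24. Both were larger in size than the genotype median of -0.13. For the regulatory particle the same differences had medians of -0.11 and -0.20 (13 and 15 of 17 lower), and for the activators and inhibitor -0.0042 and -0.021. Over all genes tested they were 0.0063 and 0.0086, with 49.3% and 49.1% lower.

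**Figure D2:**
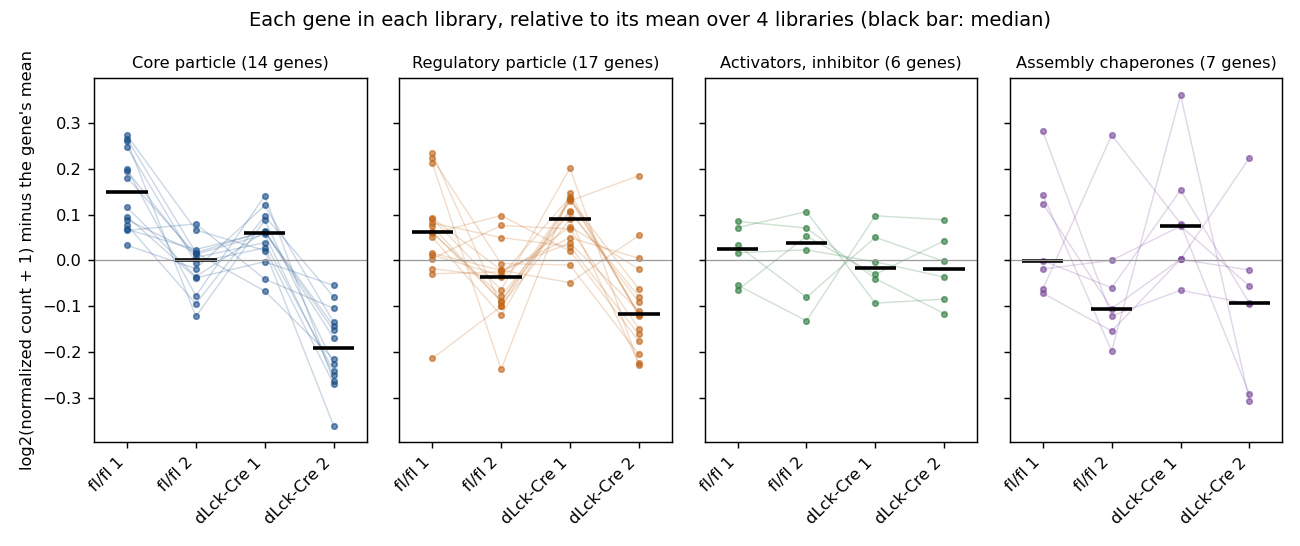
Level of each gene in each library, as log2(normalized count + 1) minus the mean of that gene over the 4 libraries, by class; thin lines join the points of a gene and black bars are medians over the genes. Core genes sit at medians of 0.15, 0.00, 0.06 and -0.19 in fl/fl 1, fl/fl 2, dLck-Cre 1 and dLck-Cre 2, while the activators and inhibitor stay between -0.02 and 0.04.

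Ratios between classes within a library do not change when the library is divided by 1 factor. They were not computed after quantile normalization, which does not use 1 factor per library. Summed normalized counts per kilobase of transcript of the core genes, divided by those of the regulatory particle genes, were 1.71 and 1.66 in fl/fl libraries and 1.58 and 1.56 in dLck-Cre-labelled libraries. The groups did not overlap, and the ratio of their means was 0.933. Psme1 and Psme2 together stood at 0.267 and 0.280 of the core sum in fl/fl libraries and at 0.306 and 0.352 in dLck-Cre-labelled libraries, a ratio of means of 1.2, with dLck-Cre library 2 the highest. Psme2 over Psme1 was 1.08 and 1.11 against 1.18 and 1.22. The alpha to beta ratio of the core overlapped between groups, at 0.764 and 0.770 against 0.814 and 0.761, as did Psme4 over core and Psmf1 over core. Of 11 ratios computed, the groups did not overlap in 7. For single genes, over all tested, they did not overlap in 27.4% as lower and in 27.7% as higher. Several of the ratios share the core sum, so they are not independent of each other. No test was made of these ratios, since the classes were compared with earlier results known, and an exact permutation test of 2 against 2 libraries cannot give a two-sided p below 0.333. The epithelial and myeloid sums given above also separated the groups, and their part in these ratios was not tested.

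None of the 3 immunoproteasome subunit genes passed. Psmb8 and Psmb9 differed by -0.04 ± 0.17 and 0.07 ± 0.14 (SE; limma, adjusted p = 0.908 and 0.821). Psmb10, the counterpart of Psmb7, had 3244 and 2587 normalized counts against 3604 and 3621 (log2 difference 0.32 ± 0.15 SE; limma, adjusted p = 0.244), and its level per kilobase relative to Psmb7 was 1.2 in both fl/fl libraries and 1.5 and 1.9 in dLck-Cre-labelled libraries. For Psmb8 over Psmb5 the ratios overlapped, at 4.76 and 3.85 against 4.99 and 4.23, and Psmb9 over Psmb6 was 0.854 and 0.848 against 0.98 and 0.88.

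**Figure D3:**
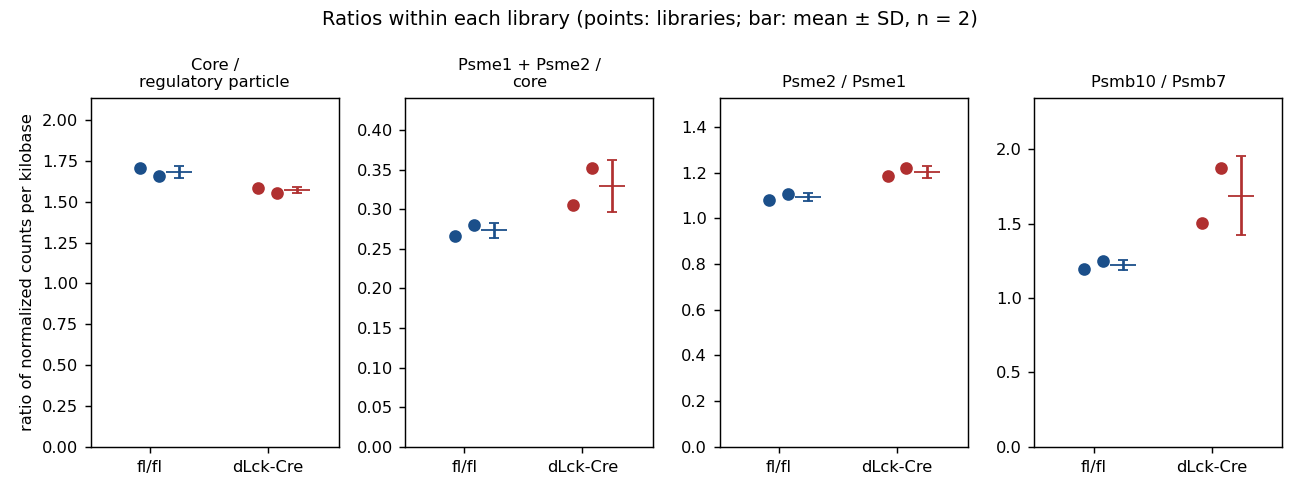
Ratios of normalized counts per kilobase within each library for core over regulatory particle genes, Psme1 plus Psme2 over core genes, Psme2 over Psme1 and Psmb10 over Psmb7. Points are the 2 libraries of each group, with the mean ± SD beside them. The 4 ratios shown are among the 7 of 11 whose groups do not overlap, the first lower and the others higher in dLck-Cre-labelled libraries.

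Levels per length differed far more between subunits than between genotypes. Within the core the mean over the 4 libraries ran from 993 normalized counts per kilobase in Psma3 to 4021 in Psmb4, with Psmb3 (3891) and Psma7 (3651) next to the top. Of the catalytic genes Psmb6 stood at 2763, Psmb7 at 1738 and Psmb5 at 1173. Regulatory particle genes ran from 360 in Psmd11 and 383 in Psmd7 to 2323 in Psmd4. Psme2 (4971) and Psme1 (4328) were above every core and regulatory particle gene, while Psme3 (488) lay within the range of the regulatory particle and Psme4 (328) and Psmf1 (101) below it. Psmb4 and Psmb3, neighbours in this order, lay closer together than their spread over the libraries. In fl/fl libraries alone the mean of Psme1 (4257) lay just below that of Psmb3 (4276), and in dLck-Cre-labelled libraries above it (4399 and 3507). Lengths are those of the longest principal transcript, so the level of a gene read mainly as a shorter form would be understated.

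**Figure D4:**
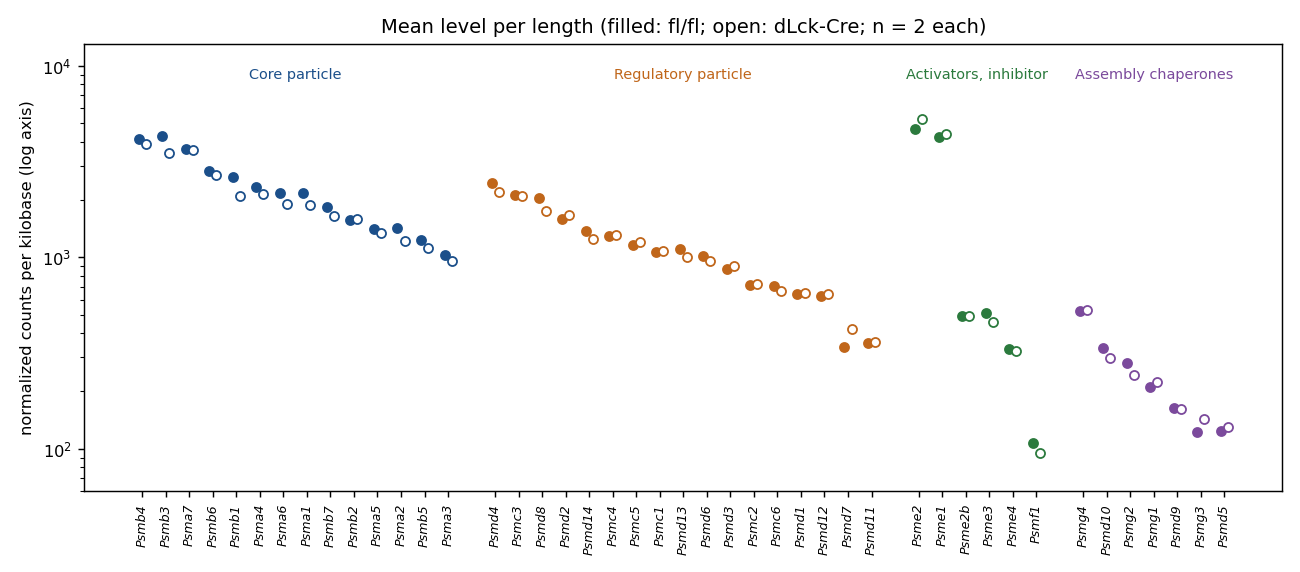
Mean normalized counts per kilobase of transcript on a log axis for 44 genes, ordered within each class; filled points are fl/fl and open points dLck-Cre (2 libraries each). Filled and open points nearly coincide, while the genes span from 101 in Psmf1 to 4971 in Psme2 as means over the 4 libraries.

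Genes that act with the proteasome gave none past the threshold in the fit of all 4 libraries under the deposited scaling without a block. Of 37 such genes tested, which cover other subunits, transcription factors of proteasome genes, ubiquitin genes, shuttle factors and downstream peptidases, 0 passed over all genes in limma's test, 0 in edgeR and 0 in DESeq2. At an unadjusted p under 0.05 the counts were 6 in limma (23.9% of all genes tested did so), 5 in edgeR and 3 in DESeq2. Their median log2 difference was -0.06, with 13 above and 24 below 0. Nfe2l1, which drives proteasome genes when proteasome activity falls, had 1703 and 1792 normalized counts against 2066 and 2222 (0.29 ± 0.13 SE, limma's adjusted p = 0.221), and its antioxidant relative Nfe2l2 had 1213 and 1137 against 1439 and 1585 (0.36 ± 0.14, adjusted p = 0.161). In both the libraries labelled dLck-Cre were the higher pair. Of the 37 genes the groups did not overlap in 6 as higher (16.2%) and in 11 as lower (29.7%). Over all genes tested the shares were 27.7% and 27.4%.

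Pomp, which matures the core, had 2376 and 2101 normalized counts against 2055 and 1884 (log2 difference -0.18 ± 0.14 SE). Adrm1, a ubiquitin receptor of the base, had 1128 and 1190 against 1206 and 1258 (0.09 ± 0.13), and the lid subunit gene Sem1, listed under its older symbol Shfm1, 2676 and 2561 against 2658 and 2615 (0.01 ± 0.12). The partner with the smallest p was Thop1, a peptidase that trims proteasome products, with 386 and 407 against 585 and 599 normalized counts (0.58 ± 0.15; limma, adjusted p = 0.0704). With the replicate number as a block 1 partner passed (Thop1 log2 difference 0.58, adjusted p = 0.0393), and without dLck-Cre library 1 another did (Midn log2 difference 0.77, adjusted p = 0.0366). After T cell identity scaling 21 passed. The next smallest p was that of Rps27a, one of the genes that encode ubiquitin fused to a ribosomal protein, with 9483 and 9035 against 7430 and 6270 (-0.44 ± 0.14, adjusted p = 0.111).

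The result for the members depends on what the libraries are scaled to. When values were scaled so that 20 T cell identity genes had the same sum in every library, all 45 genes lay above 0, and 31 passed as higher in limma's test, 7 of the core, 15 of the regulatory particle, 5 activators and 4 assembly chaperones. That scaling divides each library by 1 factor, so every gene moved up by nearly the same log2 step. It raised the median of all genes to 0.54 and called 37.3% of all genes tested as higher. The members' median was 0.50, below that of all genes, as under the deposited scaling (-0.06 and -0.02). The core genes given above as below 0 thus lay above 0 under that scaling.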

How the data were processed

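A single table of bulk RNA sequencing was used, with 4 libraries, 2 per genotype. Its deposited values are a normalized signal in which the authors had divided each library by a size factor, as its name and values show: 100% of values in every library were whole multiples of 1 step (tolerance 1e-06 of the value), so whole reads were recovered. Per the submitters' processing notes the build was mm10. The aligner, the counter, the strand setting and the gene models are not given in the sources used here. Every listed gene had at least 41 reads over the 4 libraries, and depth was 16777017 to 22422971 recovered reads per library.

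The deposited values plus a pseudocount of 1 were tested as log2 with limma 3.58.1 (intensity trend) in R 4.3.3, over genes with a mean of at least 10 (16490), adjusted by Benjamini-Hochberg at 0.05; all 45 members passed this filter. A fold change on this scale understates the change of low genes. edgeR 4.0.16 and DESeq2 1.42.0 on the recovered reads were alternatives and called 1133 and 1768 of all genes. In edgeR the reads were scaled by TMM, not by the deposited factors. The fits were tested on simulated counts. The members and lists were chosen with earlier results of these data known. Members named with values were those at the ends of each class, the catalytic subunits, the activators and the inhibitor, and the low genes and, of the partners, Nfe2l1, Nfe2l2, Pomp, Adrm1 and Sem1; all other members named with values, and Thop1, Rps27a, Midn, Irf1 and Ifng, were chosen after their values were seen. Positions and transcript lengths came from GENCODE M21 by symbol (45 of 45 members matched), and promoters from RefSeq, GRCm38.p6. Of the 45 members, 18 had a transcript of another gene that matched over at least 300 bases at 90% identity or more, and for 7 of them (Psma3, Psma4, Psmc3ip, Psmd11, Psmd13, Psme2 and Psme2b) that gene, a copy or an overlapping neighbour, was itself listed, so their counts are uncertain.

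Other settings tried were a pseudocount of 0.5 or 5, filters at 0 or at a mean of 50, TMM or quantile scaling, T cell identity scaling, limma without trend or robust, the count tests, the replicate number as a block, and leaving out each library. The ratios between classes were added after the data were seen.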

Additional observations from a re-analysis of the deposited data

How the results depend on the processing

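Across 15 of 16 alternatives, which changed the pseudocount, the filter, the normalization, the variance model, the test, the block or the libraries, 0 of 45 members passed in either direction. The exception was T cell identity scaling, with 31 higher, 7 core, 15 regulatory particle, 5 activator or inhibitor, 4 assembly and 21 partner genes, a members' median of 0.50, and log2 ratios of summed levels of 0.41 (core), 0.53 (regulatory particle), 0.62 (activators and inhibitor) and 0.53 (assembly). It also turned the sign, with a call, of Psma3 (0.46), Psma5 (0.48), Psma7 (0.55), Psmb4 (0.47), Psmb5 (0.42), Psmb6 (0.50), Psmb8 (0.52), Psmc3 (0.53), Psmc6 (0.48), Psmd4 (0.40), Psmd6 (0.49), Psmd9 (0.54), Psmd14 (0.43), Psme3 (0.40) and Psme4 (0.52); it raised the median of all genes to 0.54. T cell identity scaling moves every gene by nearly the same log2 step. Which genes turned sign thus followed from their differences under the deposited scaling and is not a result about single genes. Without a call, signs changed in 13 of 58 named genes with quantile normalization, 1 with TMM, 2 with edgeR and 10 to 14 when a library was left out. Quantile normalization moved the activators' summed level from 0.06 to 0.19; the cause was not tested.

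Leaving out 1 library moved the median log2 difference of the members, -0.06, to between -0.17 (without dLck-Cre replicate 1) and 0.019 (without dLck-Cre replicate 2), so their sign rests on single libraries. Without dLck-Cre replicate 1, 1 partner passed (Midn log2 difference 0.77, adjusted p = 0.0366). Over all genes, limma called 0 without dLck-Cre replicate 2 (2810 at an unadjusted p under 0.05), 0 without the trend (3443), 341 after quantile normalization and 1768 with DESeq2. Where 0 of all genes were called, 0 members was fixed in advance, so such settings add no support to the count of members above. A group left with 1 library was assumed to vary like the other. The core over regulatory particle ratio kept its sign in each (-0.12 to -0.08), as did Psme1 and Psme2 over core (0.16 to 0.37).

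The replicate number as a block called 2096 genes against 1150 without it, 0 members, and 1 partner (Thop1 log2 difference 0.58, adjusted p = 0.0393); same-numbered libraries deviated together with r = 0.110 across genes, over 2 pairs, which does not establish a pairing.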
